A study of Mus musculus with 3 samples.

Results

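The genes of plasminogen activation were followed in mouse mammary tumors that carried a GATA-3 retrovirus. The 6 genes chosen were Plau, Plat, Plaur, Plg, Serpine2 and Serpinb2, and their members were all probe rows whose gene symbol in the platform annotation was one of these names. This gave 5 of the 15056 genes with a symbol on the array, on 6 of 38976 probe rows, with 2 for Plg and 1 each for Plau, Plat, Plaur and Serpinb2. No row with a symbol was matched to Serpine2, which encodes protease nexin-1 and was not analysed here. All 6 rows had a value on every array.

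The tumors on one side of each array were outgrowths of cultured MMTV-PyMT mammary carcinoma cells infected with a PMIG retrovirus carrying full length GATA-3 and an IRES-GFP cassette. On the other side were outgrowths of the same kind of cells infected with the empty retrovirus. Both sides carried the MMTV-PyMT oncogene, which is driven in mammary epithelium by the promoter of a mouse mammary tumor virus, and both grew for 6 weeks in cleared fat pads of wild-type mice, so that each RNA could also hold host stroma. The infected cells were primary cultures, the labels describe no selection of infected cells, and the sources used here do not give the ages and strains of the mice. Total RNA of the GATA-3 tumor was labelled with Cy5 and that of the empty-vector tumor with Cy3 on all 3 arrays. No array had the dyes swapped, so that dye bias and a difference between tumors cannot be told apart in any ratio. The labels do not say that the 3 arrays held RNA of separate mice, so p-values measure the spread between these arrays, which may be technical.

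Plasmin is the protease that dissolves fibrin and cuts other matrix proteins, and it circulates as the inactive zymogen plasminogen. Urokinase, which acts mostly at cell surfaces through its receptor, and tissue plasminogen activator, which acts mostly on fibrin, turn plasminogen into plasmin. Serpins such as plasminogen activator inhibitor 2 trap the activators in an inactive complex. In mammary tumors the urokinase branch is best known for its place in invasion, and urokinase and its receptor are made by tumor cells as well as by macrophages and other stromal cells.

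The values were log2 ratios of the GATA-3 tumor over the empty-vector tumor, each array set to a median of 0. The direction is taken from the labels, where channel 1 holds RNA of the GATA-3 tumor, and is likely rather than stated. Were it the reverse, each ratio would change sign, Plau would be the lowest of the rows instead of the highest, and every rise, fall and share of higher or lower rows given here would swap. Before centring, the array medians were between -0.07 and -0.02. The Gata3 probe gave 0.74, 0.86 and 0.79 on arrays 1, 2 and 3. Across all rows, which are not independent replicates, the ratios of array 1 correlated with those of array 2 at a Pearson's r of 0.77 and with those of array 3 at 0.78, and those of array 2 with array 3 at 0.94. Arrays 2 and 3 share a title prefix that array 1 does not have.

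A row was called when its mean ratio differed from 0 at an adjusted p under 0.05 in limma, with Benjamini-Hochberg adjustment over 38975 rows. The urokinase gene was called with a positive ratio, and the gene of its receptor and 1 of the 2 plasminogen probes with a negative one. The tissue activator, the second plasminogen probe and Serpinb2 were not called. These 3 calls among 6 rows compare with 57.3% of all rows called, so the number of calls does not set these genes apart from the rest of the array. Without array 3, 11756 of all rows were called, against 22341 with all 3 arrays, and 2 of the 6 member rows. Without array 1, 25269 of all rows were called and 5 of the 6 member rows, so calls rose over the whole array there too. By direction, 31.4% of all rows were called above 0 and 25.9% below 0.

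Plau encodes urokinase, the activator that works at cell surfaces. Its log2 ratio was 0.76, 0.62 and 0.80 on arrays 1, 2 and 3. All 3 arrays were positive and lay close together. The mean was 0.73 ± 0.10 (SD, n = 3), a 1.66-fold higher level in GATA-3 tumors than in empty-vector tumors, with a moderated 95% interval of 0.50 to 0.95 (limma, adjusted p = 0.00340). A difference in the number of cells of a type and a difference in RNA per cell cannot be told apart in such bulk tumors. The size was not rare on these arrays, since 15.4% of all rows had a higher mean ratio. On array 2, where the ratios were most spread, 76.1% of rows lay below Plau, against 89.1% on array 1 and 87.9% on array 3.

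Plat encodes tissue plasminogen activator, which in vessels is made by endothelium. Its log2 ratio was 0.07 on array 1, -0.26 on array 2 and -0.34 on array 3. Array 1 stood on the other side of 0 from the other two. The mean of -0.17 ± 0.21 (SD, n = 3) was not called (limma, adjusted p = 0.228), and its 95% interval of -0.46 to 0.11 leaves room for a moderate decrease as well as for a small increase. Without array 1 the mean was -0.30 and passed the threshold (limma, adjusted p = 0.0379).

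Plaur encodes the urokinase receptor, a protein anchored in the membrane by a lipid that holds urokinase at the cell surface. Its log2 ratio was -0.54, -0.34 and -0.51 on arrays 1, 2 and 3. Every array was negative, with array 2 nearest to 0. The mean was -0.46 ± 0.11 (SD, n = 3), a 1.38-fold lower level in GATA-3 tumors than in empty-vector tumors, with a 95% interval of -0.69 to -0.23 (limma, adjusted p = 0.0102). The call was lost without array 3 (-0.44, limma, adjusted p = 0.0863). A mean ratio lower than that of Plaur was found in 16.9% of all rows.

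Receptor and ligand thus differed in sign on each array. Plau minus Plaur came to 1.31, 0.96 and 1.31 on arrays 1, 2 and 3, a mean difference of log2 ratios of 1.19 ± 0.20 (SD, n = 3). An exact two-sided sign-flip permutation test gave p = 0.25, which is the smallest that 3 arrays allow.

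**Figure D1:**
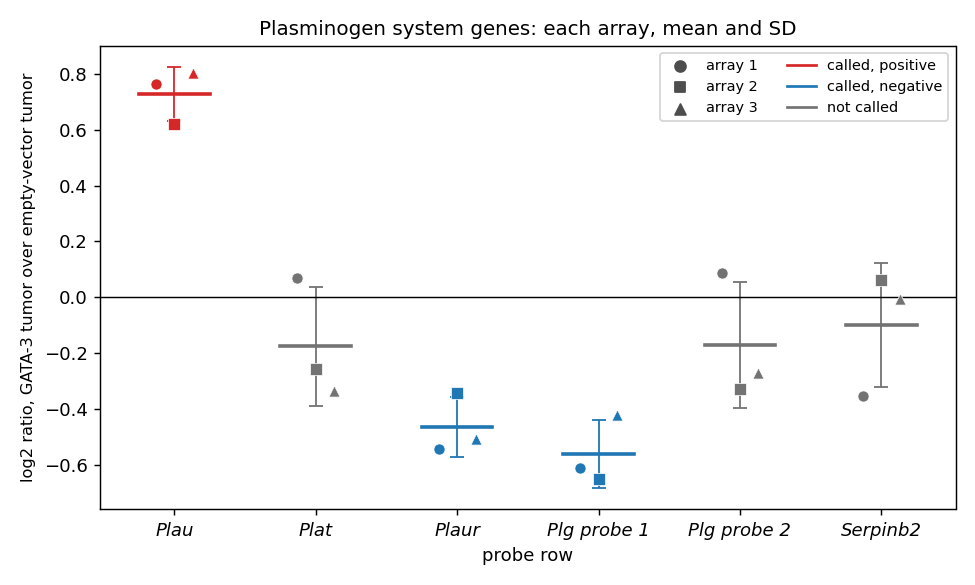
Log2 ratio of the GATA-3 tumor over the empty-vector tumor (y axis) for each probe row (x axis); symbols are the 3 arrays, long bars the mean and error bars the SD. Plau lies above 0 on all 3 arrays, Plaur and Plg probe 1 below 0 on all 3, and the other rows have arrays on both sides of 0.

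Plg encodes plasminogen itself, which in the body is made mainly by hepatocytes. Its first probe gave log2 ratios of -0.61, -0.65 and -0.42 on arrays 1, 2 and 3, all of them negative. That mean was -0.56 ± 0.12 (SD, n = 3), a 1.47-fold lower level in GATA-3 tumors, with a 95% interval of -0.80 to -0.32 (limma, adjusted p = 0.00647). The second probe gave 0.09, -0.33 and -0.27, so that array 1 again stood apart in sign. Its mean of -0.17 ± 0.23 (SD, n = 3) was not called (limma, adjusted p = 0.250; 95% interval -0.46 to 0.12), but it was without array 1 (-0.30, limma, adjusted p = 0.0359).

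The 2 Plg probes carry one RefSeq accession in the annotation and measure the same gene, yet the first read lower on every array. Their difference was -0.70, -0.32 and -0.15 on arrays 1, 2 and 3, with a mean of -0.39 ± 0.28 (SD, n = 3; exact two-sided sign-flip permutation p = 0.25, the smallest possible here). Averaged over both probes, Plg stood at -0.37 ± 0.11 (SD, n = 3) and was called among 31059 rows of averaged genes and unnamed probes (limma, adjusted p = 0.0201). That call was lost without array 2 (-0.30, limma, adjusted p = 0.108) and without array 3 (-0.37, limma, adjusted p = 0.119).

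Serpinb2 encodes plasminogen activator inhibitor 2, a clade B serpin that stays largely inside the cell and inhibits both activators. Its log2 ratio was -0.35, 0.06 and -0.01 on arrays 1, 2 and 3. Arrays 2 and 3 lay near 0 and array 1 below it. The mean was -0.10 ± 0.22 (SD, n = 3) and was not called (limma, adjusted p = 0.483; 95% interval -0.39 to 0.19). Without array 1 the mean turned to 0.028 (limma, adjusted p = 0.803).

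Ordered by mean ratio, Plau was highest, followed by Serpinb2, the second Plg probe, Plat, Plaur and the first Plg probe. The 95% interval of Plau overlapped with none of the others. Those of the other 5 rows all overlapped one another, but overlap is no test of a difference between rows of the same arrays. Plaur and the first Plg probe each lay below Plat, the second Plg probe and Serpinb2 on every array. Apart from the 2 Plg probes, differences among these 5 rows were not tested. The rows that were not called were also the more variable ones, and the SD enters the test itself. Their SDs of 0.21 to 0.23 exceeded those of at least 62.2% of all rows, while the SDs of 0.10 to 0.12 of Plau, Plaur and the first Plg probe exceeded those of at most 32.6%. Over all rows the median SD was 0.17. A single sign on all 3 arrays was found for 76.7% of all rows and for 3 of these 6.

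**Figure D2:**
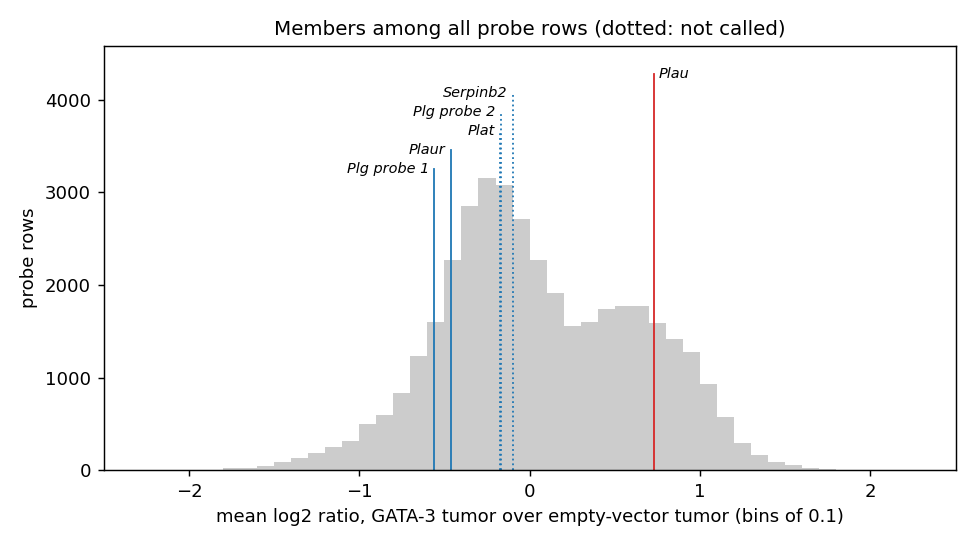
Number of probe rows (y axis) by mean log2 ratio in bins of 0.1 (x axis), with vertical lines at the means of the plasminogen rows; dotted lines were not called and line heights only separate the names. Of the 6 rows, Plau alone is positive, at 0.73, and the others lie between -0.56 and -0.10.

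The distribution of all row means had its highest count, 3160 rows, in the bin that starts at -0.3 and a second, lower rise in the bins that start at 0.5 and 0.6 (1769 and 1773 rows). Plau lay in the bin that starts at 0.7, next to that second rise, and the rows of Plat, Serpinb2 and the second Plg probe lay beside the main peak. The median over all rows was -0.02.

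Promoter sequence from RefSeq (build GRCm38.p6) was at hand for Plaur, Serpinb2 and Serpine2, that is, for 3 of the 6 genes. The windows of Plaur, which was called, and of Serpinb2, which was not, are shown because the virus encodes a DNA-binding factor. Each is the 250 bases before an annotated start on the plus strand, chr7:24462233-24462482 for Plaur and chr1:107511173-107511422 for Serpinb2, written 5′ to 3′. Capitals mark matches, on either strand, to 4 motifs. The GATA motif was any of AGATAA, its variant form AGATAG, the related form TGATAA and the last form TGATAG. For AP-1 the letters were TGACTCA and the reverse complement TGAGTCA, for the GC box they were GGGCGG, and for the TATA box TATAAA.
Plaur: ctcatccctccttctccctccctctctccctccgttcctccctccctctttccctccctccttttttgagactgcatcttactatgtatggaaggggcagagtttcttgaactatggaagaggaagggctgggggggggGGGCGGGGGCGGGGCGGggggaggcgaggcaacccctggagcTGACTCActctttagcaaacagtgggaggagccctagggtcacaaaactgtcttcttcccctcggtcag
Serpinb2: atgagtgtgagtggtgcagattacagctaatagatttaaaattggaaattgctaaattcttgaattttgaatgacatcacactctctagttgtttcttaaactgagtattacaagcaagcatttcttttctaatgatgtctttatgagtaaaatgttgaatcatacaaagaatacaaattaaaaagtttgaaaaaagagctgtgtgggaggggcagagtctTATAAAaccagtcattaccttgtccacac

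The Plaur window held 3 GC boxes, starting 111, 105 and 100 bases before the start, of which the last 2 share a base, and 1 AP-1 motif starting 69 bases before it. No GATA motif and no TATA box was in that window. The Serpinb2 window held a TATA box starting 29 bases before the start and none of the other motifs. A second annotated Serpinb2 start lies downstream, and the window before it, which overlaps the one shown, held the same TATA box and an AGATAA starting 41 bases before that start. Among 32851 windows of the same length, 26.5% held the GATA motif, 4.46% the AP-1 motif, 32.7% the GC box and 12.4% the TATA box. These matches describe the letters and say nothing of binding.

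Of 37 further genes of the plasmin system, 30 were measured, 19 on a single probe. Probes of a gene were averaged for this list, and 9 genes rose, 10 fell and 11 were not called (limma, adjusted p under 0.05 over 31059 rows). The called share was 63.3%, against 57.9% of all 15056 named genes. By direction, 32.1% of all named genes were called above 0 and 25.8% below 0. The counts by role that follow are of few genes each and are to be read beside those shares. The list had a median log2 ratio of -0.14, against 0.02 for all named genes. Its medians on arrays 1, 2 and 3 were -0.002, -0.20 and -0.08. Without array 2 the list had 9 calls and without array 3 it had 8. Calls fell over the whole array as well, from 22341 of all probe rows to 15193 without array 2 and 11756 without array 3. The list counts averaged genes and the array counts probe rows, and whether the list lost a larger share of its calls was not tested.

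Among other inhibitors, 2 of 4 measured genes rose. Serpina5, the protein C inhibitor that also blocks urokinase, gave log2 ratios of 0.80, 0.83 and 0.80, with a mean of 0.81 ± 0.02 (SD, n = 3; limma, adjusted p = 0.00307). A2m, the broad protease trap alpha-2-macroglobulin, averaged 0.74 ± 0.27 (SD, n = 3; limma, adjusted p = 0.00683). Both were positive on every array. Serpinf2, the plasmin inhibitor alpha-2-antiplasmin, was not called at -0.23 ± 0.09 (SD, n = 3; limma, adjusted p = 0.0647), and its 2 probes gave -0.52 and 0.06. It passed without array 1 (-0.28, limma, adjusted p = 0.0404) and with the values as deposited (-0.29, limma, adjusted p = 0.0407). Serpini1, neuroserpin, an inhibitor of tissue plasminogen activator named here after its value was seen, stood at -0.08 ± 0.20 (SD, n = 3; limma, adjusted p = 0.545), and at 0.027 without array 2.

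Plasminogen is bound at the cell surface by annexin A2 with its partner S100a10. The ratios of these partners had opposite signs. Anxa2 gave 0.22, 0.66 and 0.89 on arrays 1, 2 and 3, whereas S100a10 gave -1.18, -1.30 and -0.73. Anxa2 rose by a mean of 0.59 ± 0.34 (SD, n = 3; limma, adjusted p = 0.0223), a call lost without array 2 (0.55, limma, adjusted p = 0.0666) and without array 3 (0.44, limma, adjusted p = 0.120). S100a10 had the most negative mean of the 3 measured plasminogen receptor genes, -1.07 ± 0.30 (SD, n = 3), a 2.10-fold lower level in GATA-3 tumors (limma, adjusted p = 0.00354). Plgrkt, a transmembrane plasminogen receptor, was not called at 0.06 ± 0.48 (SD, n = 3; limma, adjusted p = 0.801), with arrays on both sides of 0.

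Among 10 measured partners and clearance receptors of the urokinase receptor complex, 2 rose and 4 fell. Itgam and Itgb2 encode the chains of the leukocyte integrin that binds the urokinase receptor and that marks myeloid cells. Both fell, Itgam with a mean of -1.11 ± 0.32 (limma, adjusted p = 0.00361) and Itgb2 with one of -0.49 ± 0.10 (limma, adjusted p = 0.00771), both as SD with n = 3. Over the whole macrophage list, which holds Itgam, 1 of 6 measured markers rose and 2 fell, with a median of -0.03. The Itgb2 call was lost without array 3 (-0.43, limma, adjusted p = 0.0772). Itgav, a chain of vitronectin-binding integrins, rose by 0.62 ± 0.15 (SD, n = 3; limma, adjusted p = 0.00547). The other called genes are named after their values were seen. Vtn, vitronectin, a matrix ligand of the urokinase receptor, fell (-0.48 ± 0.25, SD, n = 3; limma, adjusted p = 0.0220). It stayed negative but was no longer called without array 2 (-0.36, adjusted p = 0.0890) or without array 3 (-0.47, adjusted p = 0.113). Lrp1, which clears complexes of activators and serpins from the surface, was at -0.31 ± 0.12 (SD, n = 3; limma, adjusted p = 0.0324), with 79 of its 90 probes negative. The means of its single probes ran from -1.36 to 1.37, a spread that the SD between arrays does not hold. Igf2r, a receptor that also binds the urokinase receptor, was at 0.37 ± 0.25 (SD, n = 3; limma, adjusted p = 0.0446). These last calls were lost whichever array was left out, with signs kept. Lrp1 stood at -0.25, -0.32 and -0.37 without arrays 1, 2 and 3 (limma, adjusted p = 0.0559, 0.109 and 0.114). Igf2r stood at 0.34, 0.27 and 0.51 (limma, adjusted p = 0.0777, 0.183 and 0.0582), and its call was also lost with the values as deposited (0.32, limma, adjusted p = 0.0672).

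Of 4 measured proteases that can activate pro-urokinase or plasminogen, 2 fell. St14, the epithelial membrane protease matriptase, averaged -0.51 ± 0.26 (SD, n = 3; limma, adjusted p = 0.0195), with all 3 of its probes negative. Hpn, the membrane protease hepsin, averaged -0.38 ± 0.16 (SD, n = 3; limma, adjusted p = 0.0237). Its 2 probes were far apart, at -0.74 and -0.03. Both lost the call without array 2 (-0.36, adjusted p = 0.0686 for St14 and -0.40, adjusted p = 0.0697 for Hpn in limma) and without array 3 (-0.58, adjusted p = 0.0694 for St14 and -0.45, adjusted p = 0.0835 for Hpn in limma). F12, coagulation factor XII, at 0.14 ± 0.20, and Ctsb, the lysosomal protease cathepsin B, at 0.05 ± 0.11 (both SD, n = 3), were not called (limma, adjusted p = 0.308 for F12 and 0.639 for Ctsb), and each had 1 positive and 1 negative probe.

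Fibrin and coagulation genes held the largest ratio of the list. Of 6 measured genes, 4 rose and 1 fell. F3, tissue factor, the starter of coagulation, gave 0.93, 1.85 and 1.32 on arrays 1, 2 and 3. Its mean was 1.37 ± 0.46 (SD, n = 3), a 2.58-fold higher level in GATA-3 tumors (limma, adjusted p = 0.00407). Fga, the fibrinogen alpha chain, rose by 0.62 ± 0.18 (SD, n = 3; limma, adjusted p = 0.00637), with its 2 probes at 0.21 and 1.04. F13a1, which crosslinks fibrin and is made by macrophages among others, rose by 0.96 ± 0.55 (SD, n = 3; limma, adjusted p = 0.0162), a call lost without array 3 (0.93, limma, adjusted p = 0.0772). Fgg, the fibrinogen gamma chain, at 0.86 ± 0.61, and F2, prothrombin, at -0.56 ± 0.39 (both SD, n = 3), are named after their values were seen (limma, adjusted p = 0.0296 for Fgg and 0.0351 for F2). Fgg lost the call without array 2 (0.57, adjusted p = 0.0650) and without array 3 (0.83, adjusted p = 0.114). F2 lost it without array 2, at a larger mean (-0.60, adjusted p = 0.0650), and kept it without array 1 at a smaller one (-0.34, adjusted p = 0.0331).

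Hgf and Mst1 encode growth factors built like plasminogen, with kringle domains and a protease-like domain that lacks activity. Both fell, Hgf with a mean of -0.29 ± 0.14 (limma, adjusted p = 0.0450) and Mst1 with one of -0.41 ± 0.19 (limma, adjusted p = 0.0225), both as SD with n = 3. Each lost the call without array 2 (-0.21, adjusted p = 0.222 for Hgf and -0.32, adjusted p = 0.106 for Mst1 in limma) and without array 3 (-0.32, adjusted p = 0.170 for Hgf and -0.42, adjusted p = 0.118 for Mst1 in limma). Hgfac, the protease that activates the first of them, was not called at -0.36 ± 0.29 (SD, n = 3; limma, adjusted p = 0.0620). It passed without array 1 (-0.53, limma, adjusted p = 0.00498) and with the values as deposited (-0.42, limma, adjusted p = 0.0456).

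**Figure D3:**
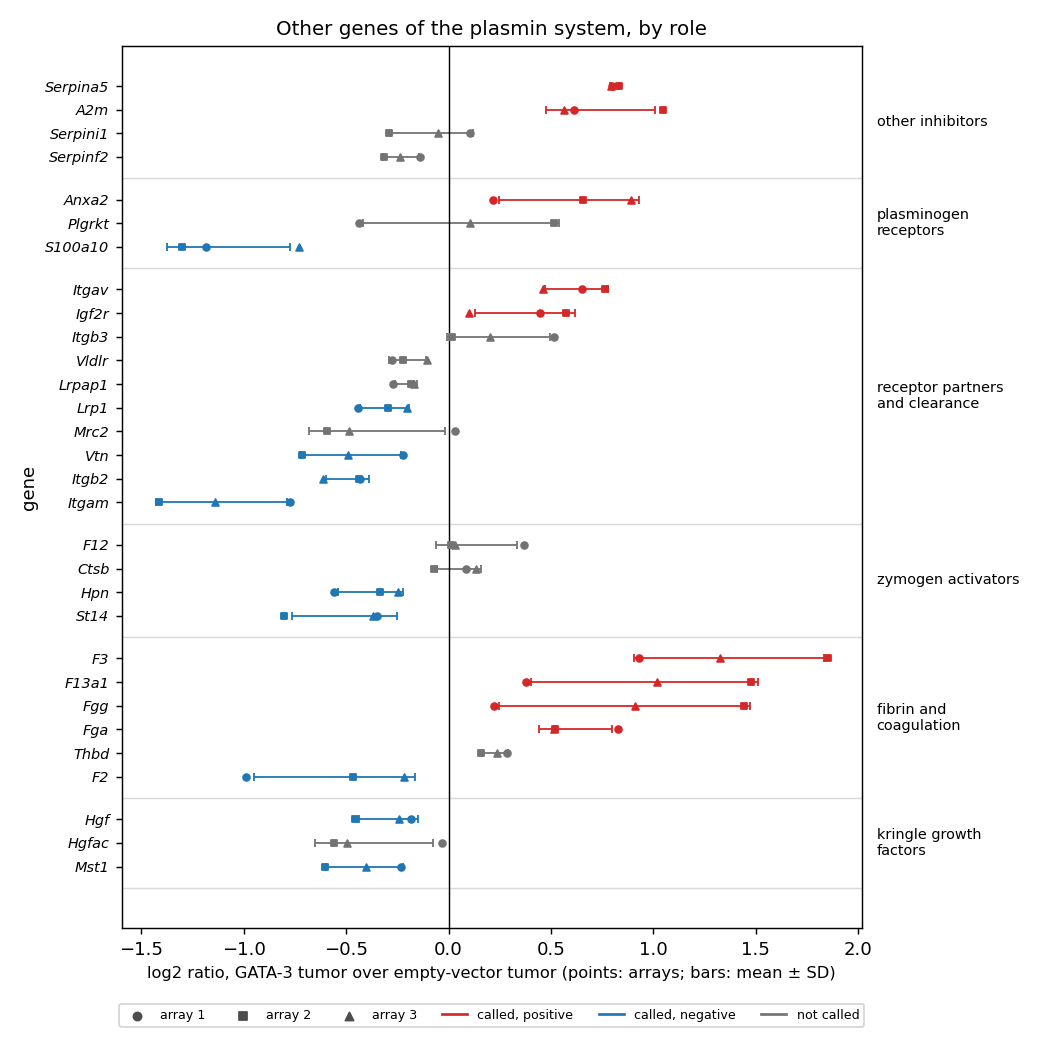
Log2 ratio of the GATA-3 tumor over the empty-vector tumor (x axis) for 30 other genes of the plasmin system (y axis), grouped by role; symbols are the 3 arrays and bars run 1 SD to either side of the mean. F3 reaches the highest mean, 1.37, and Itgam the lowest, -1.11.

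Serpinb2 belongs to a large family, of which 41 other genes were measured, 34 on a single probe. Of these, 20 rose and 4 fell (limma), a called share of 58.5% against 57.9% of all named genes, with 32.1% of all named genes called above 0 and 25.8% below 0. Their median log2 ratio was 0.38, against 0.02 for all named genes. The genes of smallest p were Serpinb1c at 1.07 ± 0.11 (SD, n = 3) and Serpinb6b at 1.20 ± 0.23 (SD, n = 3), both limma, adjusted p = 0.00307, and Serpina5. Split by clade after the values were seen, 14 of the 22 other clade B genes rose and 2 fell, with a median of 0.44, whereas Serpinb2 itself lay below 18 of them at -0.10. In clade A, 4 of 13 rose and 1 fell, with a median of 0.33. Many clade B genes have near-identical copies in the mouse, so cross-hybridization between them is possible and was not tested. The called negative genes, chosen for naming with their values in view, were the thrombin inhibitor Serpind1 (-0.71), Serpinb1a (-0.56), Serpina11 (-0.45) and Serpinb6a (-0.42). Without array 3, 11 of the 41 rose, while the probe rows called above 0 on the whole array fell from 12255 to 6948. In that setting Serpinb1a (-0.60, limma, adjusted p = 0.0600) and Serpinb6a (-0.41, adjusted p = 0.0941) lost the call. Without array 2, Serpina11 (-0.37, adjusted p = 0.0999) and Serpinb6a (-0.38, adjusted p = 0.0623) did.

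**Figure D4:**
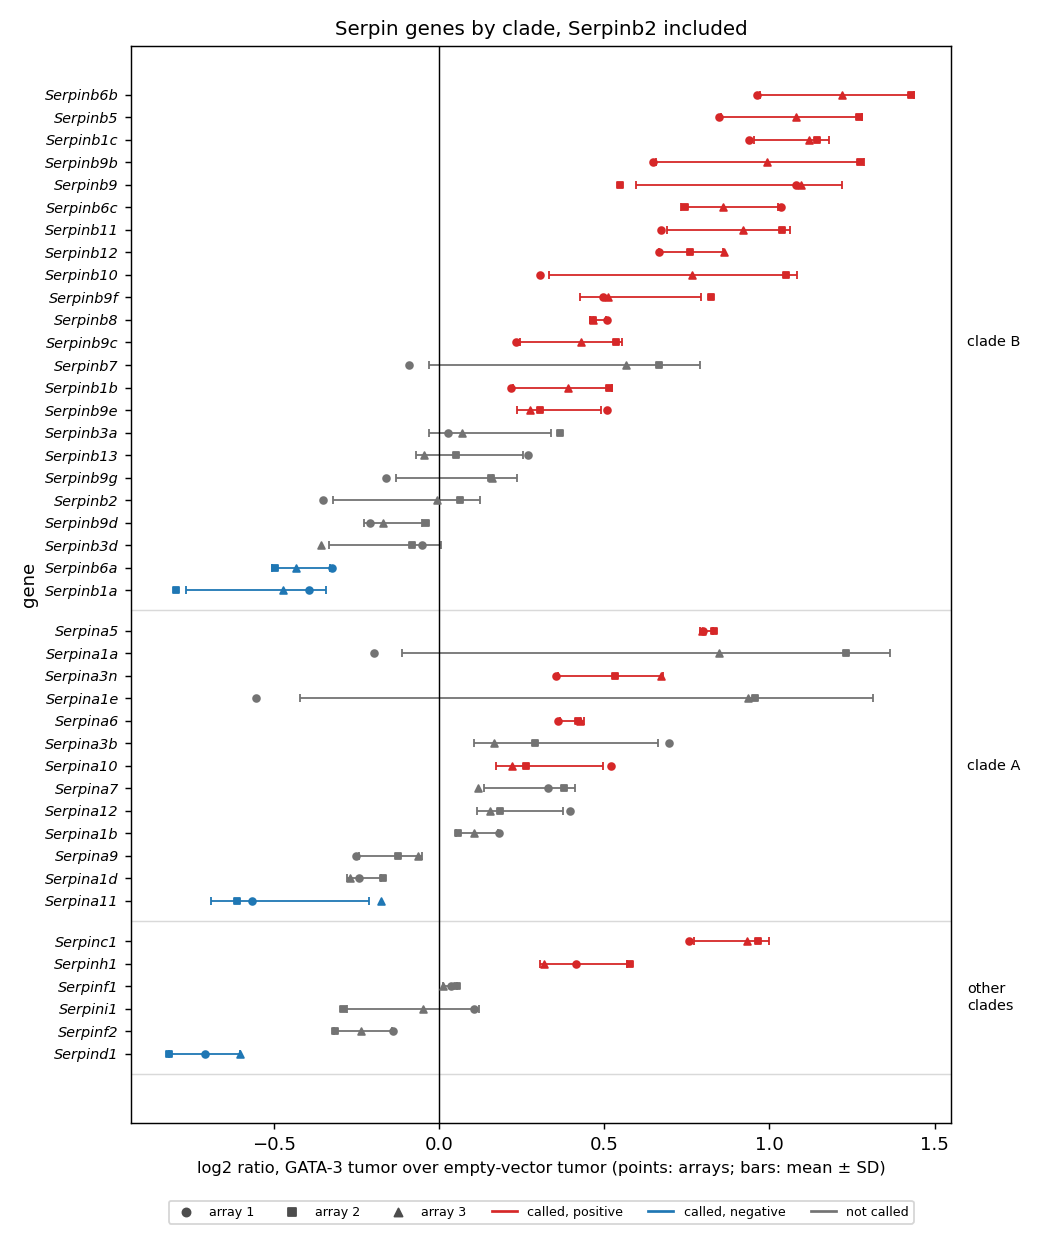
Log2 ratio of the GATA-3 tumor over the empty-vector tumor (x axis) for 41 serpin genes and Serpinb2 (y axis), grouped by clade; symbols are the 3 arrays and bars run 1 SD to either side of the mean. Clade B runs from -0.56 to 1.20 in mean ratio, with Serpinb2 at -0.10 in its lower part.

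Markers of the cells that make these proteins were measured as ratios, which give no level, so presence of a cell type could not be checked. Of all named genes, 32.1% were called above 0 and 25.8% below 0, and several of the following counts of few genes lie near those shares. Luminal epithelial markers had 1 rise and 3 falls among 6 measured, with a median of -0.47, and basal markers 1 and 1 among 5, with a median of -0.12. For macrophages, a source of urokinase, its receptor and Serpinb2, 1 of 6 measured markers rose and 2 fell, with a median of -0.03. Of 4 neutrophil markers 1 fell, with a median of -0.11. Endothelial markers, for the source of Plat, had 3 rises and 1 fall among 6, with a median of 0.23. Of 7 fibroblast markers 5 fell, with a median of -0.36. Hepatocyte markers, for the source of Plg, had 3 rises and 1 fall among 5, with a median of 0.63, while the called Plg probe was negative. The hepatocyte medians on arrays 1, 2 and 3 were 0.14, 1.23 and 0.85, so array 1 stood well below the others. Of 6 adipocyte markers 3 rose, with a median of 0.38. The part of any of these cells in the ratios of the plasminogen genes was not tested.

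The named genes with the most similar ratios were found by Euclidean distance over the 3 arrays. For Plau they were Scg5, a secretory pathway chaperone, at a distance of 0.031 and Vmn1r235, a vomeronasal receptor gene, at 0.053. For Plaur they were Ccdc57 (0.027) and C1qtnf4 (0.060), and for the averaged Plg Klhl12 (0.016) and Opcml (0.029). Plat was nearest to Hsdl1 (0.021) and Fmo4 (0.025), and Serpinb2 to Cnot2 (0.035) and Atp2b3 (0.038). With 3 arrays such closeness is common, as 17 named genes lay within 0.1 of Plaur, 19 of Plau and 141 of Plg.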

How the data were processed

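The authors deposited 1 log ratio per probe row for each of 3 two-colour arrays, per the series matrix, and the values were taken as log2. The sources used here do not give the log base, scanner, background correction or normalization. Intensities were not used, so brightness and saturation are unknown, and the number of arrays limits the precision. Were the base not 2, folds would change and signs and tests would not.

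Of 38976 rows, 22973 had a gene symbol in the platform annotation and none had several. Each array was centred on its median. The limma package (version 3.58.1, R 4.3.3) compared each row's mean with 0 (eBayes, two-sided, Benjamini-Hochberg, threshold 0.05); 1 row with a missing value was left out. Other genes were tested after averaging probes per symbol. The fit was tested on simulated rows of independent normal noise with equal variance, of which few were changed. That setting is unlike these arrays, so it does not test the calls made here.

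The members and gene lists were chosen with earlier results of these data known. The text names every member row, up to 3 genes of smallest p per role (all in roles of 5 or fewer), and the 2 nearest genes of each member. Alternatives covered centring, scaling, missing values, moderation, averaging, thresholds and each array left out. Arrays are numbered 1 to 3 in accession order.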

Additional observations from a re-analysis of the deposited data

How the results depend on the processing

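The 3 member calls held with the values as deposited, a robust eBayes, rows with 2 or more values, arrays scaled to one spread, averaged probes (for Plg, its 2 probes together) and an adjusted p under 0.10. Requiring a mean of at least 0.5 in size removed Plaur (-0.46) and the averaged Plg (-0.37). It left 12 of 30 pathway genes (4 negative) and 15 of 41 other serpins (13 positive, 2 negative). Of all 38975 probe rows tested, it left 15109 (9523 positive). The plain one-sample test, with no variance shared across rows, called 66 of all rows (51 positive) and 0 members, pathway genes or serpins; adjusted p in that test was 0.0570 for Plau (0.73), 0.0689 for Plaur (-0.46), 0.0671 for the first Plg probe (-0.56) and 0.0865 for averaged Plg (-0.37). Unadjusted, 18016 of all rows, 3 member rows, 12 pathway genes and 23 serpins had a p under 0.05 in it. Its use of 2 degrees of freedom per row is the difference in construction.

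Leaving out 1 array at a time gave 11756 to 25269 called rows (6948 to 13779 positive), 2 to 5 member rows, 8 to 20 pathway genes (5 to 8 positive, 3 to 12 negative) and 13 to 27 other serpins (11 to 22 positive, 2 to 5 negative). The member means ran from 0.69 to 0.78 for Plau, -0.30 to -0.095 for Plat, -0.53 to -0.42 for Plaur, -0.63 to -0.52 and -0.30 to -0.092 for the Plg probes, -0.42 to -0.30 for averaged Plg and -0.18 to 0.028 for Serpinb2. Signs turned only for genes that were not called: Serpinb2 without array 1 (0.028), Serpini1 (0.027) and Plgrkt (-0.17) without array 2 (Plgrkt was at 0.31 without array 1), and Ctsb with the values as deposited (-0.0033). Of 19 called pathway genes, 7 kept the call without each array in turn. The cause of these changes was not tested. Averaging probes is itself the setting of the gene results, so it gave them no alternative. No paired analysis was possible because each tumor pair was already combined in 1 ratio and there was 1 group.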
